A study of Homo sapiens with 18 samples.

Results

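Transcripts of 8 genes of the caspase system were followed in IMR90 cells: the caspase genes CASP2, CASP4, CASP6, CASP8, CASP9 and CASP10, APAF1, and XIAP. They were picked by gene symbol, and all 8 symbols were found among the 56269 genes of the deposited table. IMR90 is a line of human lung fibroblasts, so every library came from the same cell line. A pre-incubation of 6 h came first, in PBS or in 20 μg/ml hyaluronan (HA) secreted by naked mole-rat skin fibroblasts. The HA was either partially fragmented by hyaluronidase that was then inactivated by heat (fNSF-HA), or heated with enzyme already inactivated. The latter leaves the polymer long (cNSF-HA). In 3 of the 6 groups the medium with HA or PBS was then removed. The cells received 200 μM tBHP, an organic peroxide that causes oxidative stress, for 1 h. RNA was taken 6 h after the start of that exposure. These groups are named PBS + tBHP, cNSF-HA + tBHP and fNSF-HA + tBHP. The groups PBS, cNSF-HA and fNSF-HA were collected when the pre-incubation ended, so tBHP, the removal of the medium and the later collection cannot be told apart. Each group had 3 replicates, which the study's methods call biological without saying how the cultures were kept apart, and the p-values measure the spread between these 18 libraries.

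Caspases are proteases that are made as inactive precursors and are switched on by assembly or cleavage of the protein, so a transcript level gives the amount of message and not the activity of the enzyme. In the mitochondrial route to apoptosis, cytochrome c released into the cytosol binds APAF1, which assembles into the apoptosome and activates the CASP9 protein, which in turn cleaves further caspases. XIAP binds and inhibits these enzymes. The CASP8 and CASP10 proteins are initiators recruited to death receptors, the CASP2 protein is activated on a platform built by PIDD1 and CRADD, the CASP6 protein cleaves lamin A, and the CASP4 protein is an inflammatory caspase that recognizes bacterial lipopolysaccharide in the cytosol.

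The libraries held between 20261103 and 26287660 reads on genes, with a median of 22526525. Fibroblast marker transcripts (8 of 8 measured) summed to between 452013 and 717947 normalized counts in each library. A normalized count is the number of reads on a gene divided by the size factor of its library, a number that corrects for depth. The sums of 6 epithelial markers and of 4 leukocyte markers were at most 14.5 and 17.9 normalized counts, and KRT5, SFTPB and SFTPC were at 0 in all 18 libraries. The 4 endothelial markers summed to between 712 and 1459 normalized counts, nearly all of it from TEK, while CDH5 was at 0 and PECAM1 had 1 read in 1 library. As a check of the oxidant, 6 of 6 target genes of NRF2 and p53 rose in PBS cells after tBHP, with CDKN1A, the p21 cell cycle inhibitor, up by a log2 difference of 3.06 and HMOX1, which encodes heme oxygenase, by 2.96. SRXN1, which encodes sulfiredoxin, rose by 2.35 and TXNRD1, which encodes a thioredoxin reductase, by 1.56.

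Of the 8 genes, 7 had a mean of at least 10 normalized counts and were tested. Compared per kilobase of exon in PBS cells, APAF1 was the most abundant message of the 8, with 253 ± 9.13 normalized counts per kb (SD, n = 3), followed by CASP6 with 218 ± 3.42 and CASP2 with 205 ± 4.16. XIAP had 136 ± 8.17 normalized counts per kb and CASP4 126 ± 5.73, and their libraries overlapped (127 to 143 against 119 to 130). CASP8 had 41.9 ± 4.0 and CASP9 only 11.8 ± 0.67 normalized counts per kb. This order depends on the length used. Divided by the longest transcript instead of all exons, the PBS means of CASP2, APAF1 and CASP6 lay close together at 285, 283 and 273 normalized counts per kb. After tBHP the PBS means of the 3 most abundant genes were 230 normalized counts per kb of exon for APAF1, 222 for CASP6 and 190 for CASP2, with CASP4 at 171 ± 12.2 and XIAP at 137 ± 15.0. By the longest transcript, CASP4 lay above XIAP already without tBHP, at 192 against 143 normalized counts per kb.

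CASP10 (chromosome 2, 201182881 to 201229406, plus strand, GRCh38) was close to undetected, with 34 reads in all 18 libraries together. It had 0 reads in 7 libraries and at most 7 reads in any library, where a count of 0 allows up to 3 reads. Its values were 1.93, 0 and 0 normalized counts in PBS cells and 0, 7.62 and 0 in PBS + tBHP cells. In cNSF-HA cells they were 1.91, 3.91 and 1.03, in fNSF-HA cells 0, 2.96 and 0, in cNSF-HA + tBHP cells 5.27, 2.03 and 0, and in fNSF-HA + tBHP cells 4.38, 2.13 and 1.14. At this depth no difference between groups was detectable for CASP10, and it is left out of the tests.

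**Figure D1:**
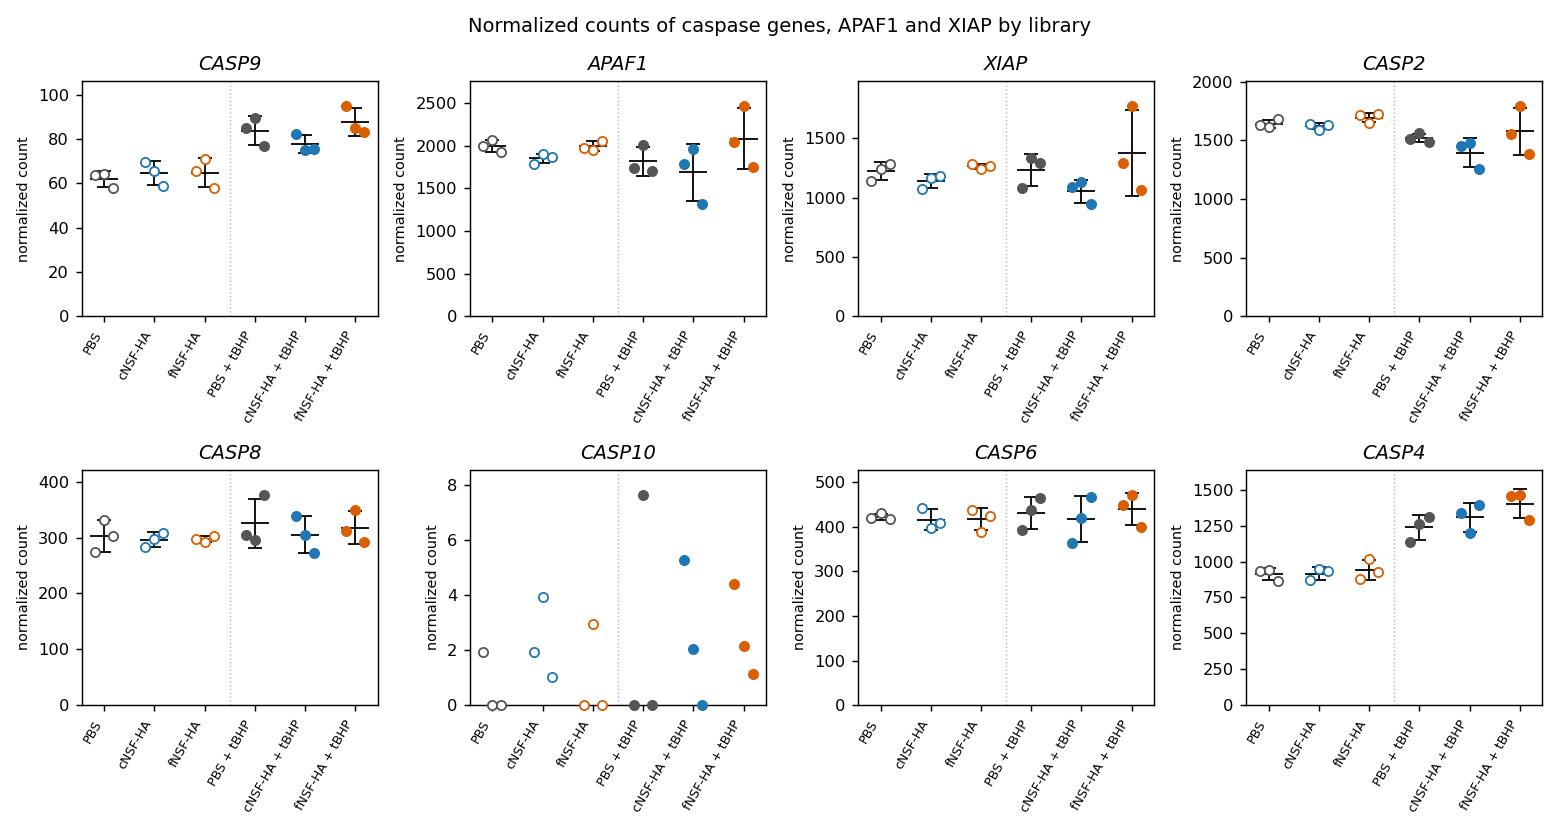
Normalized counts (vertical axis, linear from 0, a separate scale for each gene) in each of the 18 libraries by group, with open circles for cells without tBHP and filled circles for cells after tBHP. Black bars give the mean ± SD of 3 replicates, except for CASP10, where only the values are drawn; CASP4 and CASP9 are the panels in which the 9 filled circles all lie above the 9 open ones.

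The question of the tBHP comparison is how these messages stood after oxidative stress in each pre-incubation. CASP4 rose in all 3 pre-incubations, by 1.35-fold to 1.49-fold, and CASP9 rose in PBS and fNSF-HA cells. CASP2 was lower after tBHP in cNSF-HA cells, and XIAP, APAF1, CASP8 and CASP6 were not called in the main limma fit. Of the 7 genes tested, 2 were called after pre-incubation with PBS, 2 with cNSF-HA and 2 with fNSF-HA (limma, adjusted p under 0.05), against 51.1%, 50.8% and 41.9% of all 13686 genes tested. Counted by direction, 2, 1 and 2 of the 7 were higher, against 24.2%, 24% and 19.2% of all genes, and 0, 1 and 0 were lower, against 26.9%, 26.8% and 22.7%. The median log2 differences of the 7 genes were 0.025, -0.0035 and 0.089 for PBS, cNSF-HA and fNSF-HA pre-incubation, beside 0.0043, -0.00053 and -0.034 for all genes. In bulk RNA, a change in the cells that express a gene and a change in the message per cell cannot be told apart.

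CASP4 (chromosome 11, 104942866 to 104969436, minus strand) had 931, 942 and 865 normalized counts in the 3 libraries of PBS cells and 1139, 1264 and 1309.7 in those of PBS + tBHP cells. In cNSF-HA cells it had 868, 949 and 932 normalized counts, and 1336, 1198 and 1393 after tBHP. In fNSF-HA cells it had 882, 1019.9 and 929, and 1459, 1464 and 1289 after tBHP. Every library after tBHP was above every library without it, from 1139 upwards against 1019.9 at most. Across all genes tested, 27.8% had no overlap between the 9 libraries with tBHP and the 9 without, and 12.5% had all 9 with tBHP above. The rise was 1.35-fold in PBS cells, a log2 difference of 0.44 (standard error 0.083, limma adjusted p = 0.000292). With cNSF-HA it was 1.43-fold (log2 difference 0.51, limma adjusted p = 6.80e-05) and with fNSF-HA 1.49-fold (log2 difference 0.57, limma adjusted p = 2.57e-05). CASP4 was called in each pre-incubation under all 17 alternative settings, with adjusted p-values of at most 0.00277, 0.00072 and 0.00426. It was the only one of the 7 genes called higher in all 3 pre-incubations, as were 14.6% of all genes tested. Its size depended on the setting: after removal, library by library, of the trend with the GC content and length of transcripts, the log2 differences were 0.88, 0.93 and 0.83. The CASP4 transcript has a GC content of 38.3%, where the median of the genes tested is 47.9%.

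The sequence before the RefSeq start of CASP4 is shown because CASP4 was the member with the steadiest rise. This window lies inside the gene span given above, which reaches farther upstream, to 104969436. The window of 250 bases (GRCh38.p14, chr11:104968575-104968824, minus strand, read 5′ to 3′) has a GC content of 38%, against a median of 58% in 35116 windows of the same length before annotated starts. Capitals mark matches to the motifs searched on both strands: TGANNNNGC, the core of the antioxidant response element, which occurs 2 times here and in 35.2% of all windows, and GGGCGG, the GC box, which occurs 1 time here, on the opposite strand, and in 42.6% of all windows. A match of letters is a description and not evidence of binding.
CASP4: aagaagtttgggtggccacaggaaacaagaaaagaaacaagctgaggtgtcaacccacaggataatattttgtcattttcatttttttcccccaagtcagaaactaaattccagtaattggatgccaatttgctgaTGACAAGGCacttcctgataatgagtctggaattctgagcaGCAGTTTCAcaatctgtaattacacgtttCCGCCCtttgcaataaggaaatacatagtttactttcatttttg

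CASP9 (chromosome 1, 15490832 to 15526534, minus strand) is the initiator caspase of the apoptosome. It had 63.7, 64.4 and 57.9 normalized counts in PBS cells and 85.1, 89.3 and 76.6 in PBS + tBHP cells. In cNSF-HA cells it had 69.7, 65.5 and 58.9, and 82.2, 75.1 and 75.2 after tBHP. In fNSF-HA cells it had 65.7, 70.9 and 57.8, and 94.7, 85.1 and 83.1 after tBHP. As for CASP4, the 9 libraries after tBHP, from 75.1 upwards, did not overlap the 9 without, of which the highest had 70.9 normalized counts. These values rest on 57 to 108 reads per library, so the counting of reads limits their precision more than for the other 6 of the 7 genes. The rise was 1.34-fold in PBS cells (log2 difference 0.42, standard error 0.13, limma adjusted p = 0.0103) and 1.35-fold in fNSF-HA cells (log2 difference 0.43, limma adjusted p = 0.0113). In cNSF-HA cells the difference was 0.26 (95% interval -0.01 to 0.53, limma adjusted p = 0.101) and was not called, although with edgeR it was (0.32, adjusted p = 0.0475) and with TMM scaling too (0.32, limma adjusted p = 0.0437). Over the alternatives for cNSF-HA cells, the adjusted p ranged from 0.0437 to 0.341. The difference between the responses of cNSF-HA and PBS cells was -0.17 (95% interval -0.55 to 0.22) and did not pass the test. The call in PBS cells was lost with the GC and length trend removed (log2 difference 0.26, limma adjusted p = 0.096, the largest over the alternatives, the smallest being 0.00361). The call in fNSF-HA cells was lost in a fit of the compared groups alone, when fNSF-HA replicate 3 was left out (0.35), and when fNSF-HA + tBHP replicate 1 was (0.38), with adjusted p-values over the alternatives from 0.00392 to 0.0643.

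Windows of 250 bases before both RefSeq starts of CASP9 are shown because CASP9 was the other gene called higher. Both lie inside the gene span given above, which reaches farther upstream, to 15526534. The GC contents are 77.6% and 71.6%, and each window holds 8 matches to the GC box GGGCGG, overlapping matches counted. The window at chr1:15524216-15524465 also holds 1 match to TGANNNNGC, and the window at chr1:15524791-15525040 none (both GRCh38.p14, minus strand, read 5′ to 3′, matches in capitals).
CASP9, downstream start: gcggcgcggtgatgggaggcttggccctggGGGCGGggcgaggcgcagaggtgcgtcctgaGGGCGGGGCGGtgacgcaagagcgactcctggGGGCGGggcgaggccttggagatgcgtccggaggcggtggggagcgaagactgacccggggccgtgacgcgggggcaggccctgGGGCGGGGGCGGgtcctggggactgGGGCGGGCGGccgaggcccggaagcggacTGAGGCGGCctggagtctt
CASP9, upstream start: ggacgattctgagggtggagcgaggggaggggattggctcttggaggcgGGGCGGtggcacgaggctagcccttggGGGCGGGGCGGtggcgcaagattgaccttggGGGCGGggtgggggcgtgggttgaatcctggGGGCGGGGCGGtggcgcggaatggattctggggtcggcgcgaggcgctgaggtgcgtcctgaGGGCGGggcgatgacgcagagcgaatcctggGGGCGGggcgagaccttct

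Of the 8 genes, 7 were matched to 13 such windows in RefSeq. CCTGCG, the motif of the CD44 intracellular domain, occurred 3 times before the start of CASP2 at chr7:143288101-143288350 and 1 time in a window of CASP8, and was found in 20.2% of all windows. TGACTCA, the AP-1 site, occurred 1 time, in the same window of CASP8, and was found in 4.20% of all windows. TGATGNAA, the core bound by CHOP and ATF4, was not in any of the 13 windows and was in 3.14% of all windows. The absence of a match says only that these letters are not in these windows.

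APAF1 (chromosome 12, 98645141 to 98735433, plus strand), the scaffold of the apoptosome, had 1993, 2072 and 1928 normalized counts in PBS cells and 1744, 2003 and 1698 in PBS + tBHP cells. In cNSF-HA cells it had 1788, 1899 and 1867, and 1781, 1967 and 1316 after tBHP. In fNSF-HA cells it had 1970.5, 1954 and 2061, and 2041, 2463 and 1751 after tBHP. The libraries with and without tBHP overlapped in each pre-incubation. The log2 differences of APAF1 were -0.14, -0.15 and 0.05 in PBS, cNSF-HA and fNSF-HA cells, with limma adjusted p-values of 0.36, 0.32 and 0.782. With the GC and length trend removed they were 0.12, 0.18 and 0.22, and APAF1 was then called higher in cNSF-HA and fNSF-HA cells (limma adjusted p = 0.0151 and 0.00362).

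XIAP (chromosome X, 123859724 to 123913979, plus strand), the caspase inhibitor, had 1144, 1246 and 1288 normalized counts in PBS cells and 1080.4, 1333 and 1292 in PBS + tBHP cells. In cNSF-HA cells it had 1071, 1163 and 1184, and 1087, 1131 and 943 after tBHP. In fNSF-HA cells it had 1284, 1244 and 1271, and 1289, 1771 and 1069 after tBHP. The groups with and without tBHP overlapped in each pre-incubation, and the fNSF-HA + tBHP libraries lay farthest apart, from 1069 to 1771. Its log2 differences for PBS, cNSF-HA and fNSF-HA pre-incubation were 0.0065 (95% interval -0.27 to 0.28), -0.12 (-0.39 to 0.16) and 0.09 (-0.19 to 0.37). None was called, and the intervals leave room for changes of either sign. The XIAP transcript has a GC content of 39.0%, and the part of its log2 differences that followed the GC and length trend was -0.41, -0.48 and -0.27, beside -0.44, -0.42 and -0.26 for CASP4. With the trend removed XIAP was called higher in all 3 pre-incubations, by 0.41, 0.36 and 0.36 (limma adjusted p = 1.08e-06, 5.79e-06 and 6.79e-06), while over the other alternatives it was called in none.

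CASP2 (chromosome 7, 143288215 to 143307696, plus strand), the caspase of the PIDD1 platform, had 1628, 1618 and 1680.2 normalized counts in PBS cells and 1512, 1562 and 1490.2 in PBS + tBHP cells. In cNSF-HA cells it had 1638, 1590.3 and 1632, and 1456, 1479 and 1254 after tBHP. In fNSF-HA cells it had 1715, 1648 and 1723, and 1553, 1791 and 1387 after tBHP. The libraries with tBHP lay below those without in PBS and cNSF-HA cells and overlapped them in fNSF-HA cells. No overlap was found for 63.8%, 63.7% and 48.7% of all genes in these 3 comparisons, and for 3, 3 and 2 of the 7 genes. The log2 difference of CASP2 in cNSF-HA cells was -0.22 (standard error 0.082, limma adjusted p = 0.034), a fall to 0.86 of the level without tBHP. In PBS and fNSF-HA cells it was -0.11 and -0.11 and was not called (limma adjusted p = 0.277 and 0.296). The call in cNSF-HA cells was lost with TMM scaling (-0.16) and edgeR (-0.16), with no filter on low values (-0.22), without each of the 3 cNSF-HA libraries in turn (-0.23 to -0.21) and without cNSF-HA + tBHP replicate 3 (-0.14), and the difference was -0.0041 with the GC and length trend removed. Over all 17 alternatives the adjusted p ranged from 0.0239 to 0.944. Without fNSF-HA + tBHP replicate 2, CASP2 was also called lower in fNSF-HA cells (-0.21, limma adjusted p = 0.0239).

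CASP8 (chromosome 2, 201233443 to 201287711, plus strand), the death receptor initiator, ranged from 274 to 332 normalized counts in the 9 libraries without tBHP and from 272 to 376 in the 9 with it. Its log2 differences were 0.10, 0.04 and 0.09 in PBS, cNSF-HA and fNSF-HA cells, and none was called (limma adjusted p = 0.472, 0.793 and 0.54). With the GC and length trend removed, CASP8 was called higher in PBS cells (0.32, limma adjusted p = 0.00605). CASP6 (chromosome 4, 109688622 to 109703583, minus strand), the lamin-cleaving caspase, ranged from 389 to 442 normalized counts without tBHP and from 364 to 471 with it. Its log2 differences were 0.025, -0.0035 and 0.076, and none was called (limma adjusted p = 0.85, 0.979 and 0.569). The 95% intervals of the 6 differences of CASP6 and CASP8 lay between -0.21 and 0.33. CASP6 shares 105 exon bases with MCUB on the opposite strand, a gene with a mean of 387 normalized counts, and the library kit does not mark the strand, so reads there cannot be told apart.

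**Figure D2:**
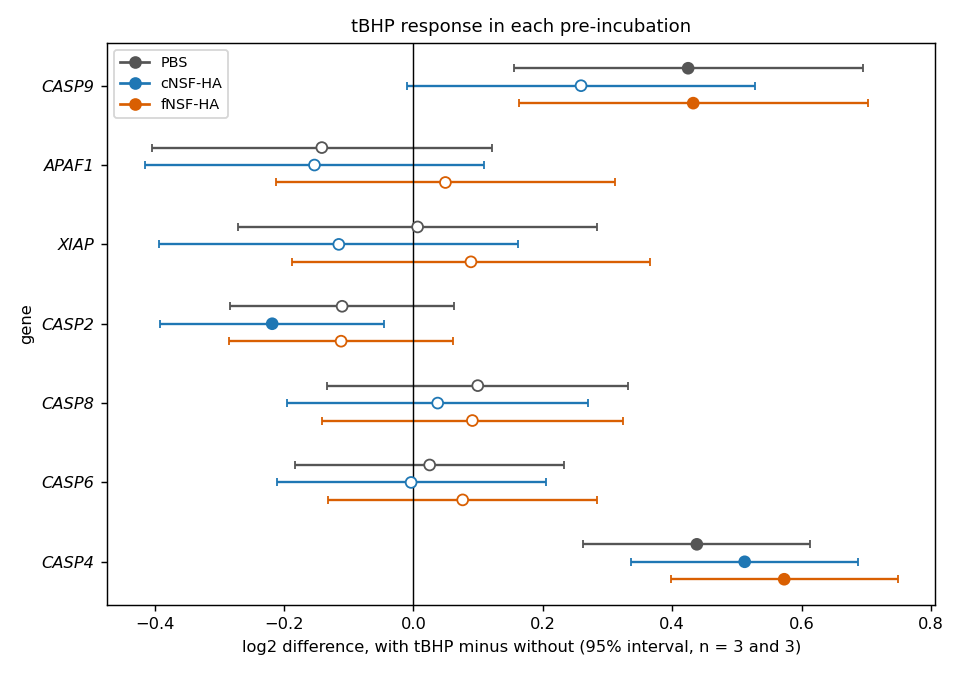
Log2 difference between cells with and without tBHP (horizontal axis) for the 7 genes tested, by pre-incubation, with 95% intervals from limma (3 against 3 libraries). Filled circles mark differences called at an adjusted p under 0.05 over all genes: CASP4 in all 3 pre-incubations, CASP9 in PBS and fNSF-HA cells, and CASP2 in cNSF-HA cells, the only one below 0.

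The differences between the tBHP responses of the pre-incubations were tested as interactions. Of the 21 differences (7 genes and 3 pairs of pre-incubations), 0 were called by limma, edgeR or DESeq2, and 0 had an unadjusted p under 0.05 in limma. Over all genes limma called 0% in each of the 3 pairs. An unadjusted p under 0.05 was reached by 555 (cNSF-HA minus PBS), 942 (fNSF-HA minus PBS) and 533 (cNSF-HA minus fNSF-HA) of 13686 genes. The differences ranged from -0.20 for XIAP (cNSF-HA minus fNSF-HA, 95% interval -0.60 to 0.19) to 0.19 for APAF1 (fNSF-HA minus PBS, -0.18 to 0.56). With 1 library left out, the first lay between -0.37 and -0.0067 and the second between 0.064 and 0.31. For CASP4 the differences were 0.07 for cNSF-HA minus PBS (-0.17 to 0.32), 0.14 for fNSF-HA minus PBS (-0.11 to 0.38) and -0.06 for cNSF-HA minus fNSF-HA (-0.31 to 0.19). The second and the third turned sign with the GC and length trend removed (-0.047 and 0.0998), and the third reached 0.0011 with 1 library left out. These intervals are too wide to show that the pre-incubations left the response alike.

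The comparison of cNSF-HA with fNSF-HA asks whether the length of the HA polymer matters for these messages. After tBHP, the fitted level of each of the 7 genes was lower with cNSF-HA than with fNSF-HA, with log2 differences of -0.36 for XIAP and -0.31 for APAF1 at the largest, and 0 of the 7 were called by limma, edgeR or DESeq2. The share called over all genes was 0% by limma, while DESeq2 called 793 genes, and 2 of the 7 genes and 4412 of all genes had an unadjusted p under 0.05 in limma. XIAP had 1087, 1131 and 943 normalized counts in cNSF-HA + tBHP cells against 1289, 1771 and 1069 in fNSF-HA + tBHP cells, so the groups overlapped, by the replicate at 1069. Its difference was -0.36 (95% interval -0.64 to -0.08, limma adjusted p = 0.101), and that of APAF1 was -0.31 (-0.57 to -0.05, limma adjusted p = 0.111). Both intervals use 1 spread per gene over all 18 libraries and are narrower than the spread after tBHP would give. CASP2 and CASP9 differed by -0.17 each, CASP4 by -0.10, CASP6 by -0.08 and CASP8 by -0.06. CASP9, with 75.1 to 82.2 normalized counts against 83.1 to 94.7, was the only one of the 7 genes whose groups did not overlap, as was the case for 13.4% of all genes.

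This comparison turned on single libraries. Without fNSF-HA + tBHP replicate 3, XIAP (-0.52, limma adjusted p = 0.00314), APAF1 (-0.43, limma adjusted p = 0.0112) and CASP2 (-0.26, limma adjusted p = 0.0148) were called, and 5586 of all genes were called as well. Without fNSF-HA + tBHP replicate 2, the differences of XIAP, APAF1 and CASP2 were -0.16, -0.18 and -0.08. With the GC and length trend removed, they were -0.059, -0.082 and -0.00067, and those of CASP4 and CASP8 turned to 0.16 and 0.077, so that not all 7 genes were then lower with cNSF-HA. Over the alternatives, the adjusted p of XIAP ranged from 0.00314 to 0.597.

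**Figure D3:**
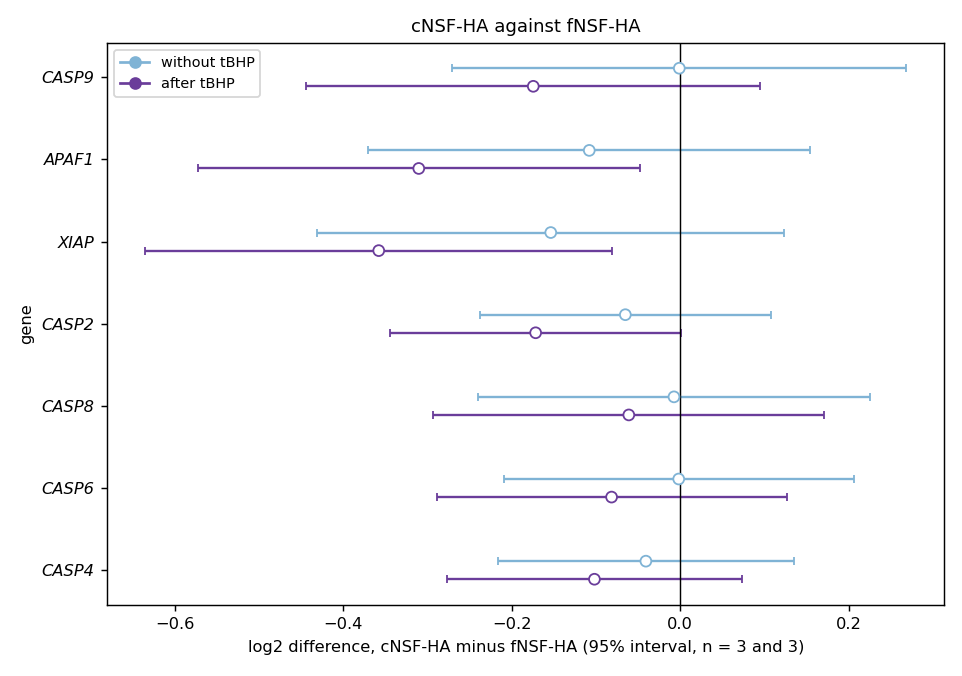
Log2 difference between cNSF-HA and fNSF-HA cells (horizontal axis) for the 7 genes tested, without tBHP and after tBHP, with 95% intervals from limma (3 against 3 libraries). All circles are open because no difference was called. After tBHP the intervals of XIAP and APAF1 end below 0, but they use 1 spread per gene shared by all 18 libraries. They are therefore narrower than the wider spread after tBHP would give.

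In the main fit, the differences between cNSF-HA and fNSF-HA were smaller in cells without tBHP. XIAP had 1071, 1163 and 1184 normalized counts against 1284, 1244 and 1271, APAF1 1788, 1899 and 1867 against 1970.5, 1954 and 2061, and CASP2 1638, 1590.3 and 1632 against 1715, 1648 and 1723. For these 3 of the 7 genes each cNSF-HA library lay below each fNSF-HA library, as groups did not overlap for 25% of all genes. The log2 differences were -0.15 for XIAP, -0.11 for APAF1 and -0.06 for CASP2. With the GC and length trend removed they were -0.064, -0.039 and -0.013, and those of XIAP and CASP2 were then not smaller than after tBHP. In the main fit 0 of the 7 genes were called by limma, and edgeR and DESeq2 called 0 as well. An unadjusted p under 0.05 in limma was reached by 0 of the 7 and by 206 of 13686 genes, with 0% called over all genes. This fit shares 1 spread per gene with the libraries after tBHP, which for XIAP was 0.069 without tBHP and 0.25 after it. The lack of a call does not show that the HA preparations were alike. In a fit of only these 6 libraries, which uses their own spread, XIAP was called (limma adjusted p = 0.0261) along with 980 of all genes. Over the alternatives for XIAP the largest adjusted p was 1.

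Against PBS, neither HA preparation gave a call among the 7 genes by limma, edgeR or DESeq2. Without tBHP, 0 of 7 passed for cNSF-HA (0% over all genes, 0 of 7 at an unadjusted p under 0.05) and 0 of 7 for fNSF-HA (0%, 0 of 7), with log2 differences from -0.11 for APAF1 to 0.06 for CASP9. Over all 13686 genes, 126 for cNSF-HA and 109 for fNSF-HA had an unadjusted p under 0.05. APAF1 in cNSF-HA cells was the only one of the 7 genes whose groups did not overlap, where 15.2% of all genes for cNSF-HA and 14% for fNSF-HA had no overlap. After tBHP, 0 of 7 passed for cNSF-HA (0% over all genes), and 0 of 7 had an unadjusted p under 0.05, against 1183 of 13686 genes. The differences ranged from -0.23 for XIAP to 0.08 for CASP4. With the GC and length trend removed these values were -0.098 and 0.13. With 1 library left out they lay between -0.32 and -0.15 for XIAP and between 0.022 and 0.14 for CASP4. CASP2 in cNSF-HA + tBHP cells, at 1254 to 1479 normalized counts, lay below PBS + tBHP cells, at 1490.2 to 1562 (9.57% of all genes had no overlap), with a difference of -0.13 (limma adjusted p = 0.66), which lay between -0.17 and -0.052 with 1 library left out and was -0.040 with the GC and length trend removed. For fNSF-HA after tBHP, 0 of 7 passed (0.139% over all genes), and all 7 genes overlapped, where 12% of all genes did not. An unadjusted p under 0.05 was reached by 1 of 7, against 3102 of 13686 genes. The difference of CASP4 from PBS + tBHP cells was 0.18 (95% interval 0.01 to 0.36, limma adjusted p = 0.209), did not pass, and was -0.029 with the GC and length trend removed (limma adjusted p = 0.904, the largest over the alternatives). It passed without fNSF-HA + tBHP replicate 3 (0.24, limma adjusted p = 0.0445, the smallest). In a fit of only the compared groups its standard error was 0.108 rather than 0.083 (limma adjusted p = 0.656).

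The spread between replicates was wider after tBHP for most of the genes. On the log2 scale the SD within groups without and after tBHP was 0.030 and 0.13 for CASP2, 0.046 and 0.24 for APAF1 and 0.069 and 0.25 for XIAP, where the median over all genes tested was 0.076 and 0.21. For CASP9 it was 0.12 without tBHP and 0.096 after it, and for CASP4 0.082 and 0.11. The main fit shares 1 spread per gene over all 18 libraries. For APAF1, XIAP and CASP2, its intervals between groups after tBHP are therefore narrower than the spread after tBHP would give. Those between groups without tBHP are wider than the spread there would give. APAF1, XIAP and CASP2 deviated together from their group means in the 9 libraries after tBHP (Pearson r = 0.948 for CASP2 and APAF1, 0.899 for CASP2 and XIAP, and 0.814 for APAF1 and XIAP, a description over 9 deviations that share libraries and group means). In fNSF-HA + tBHP replicate 2 they stood at 0.19 (CASP2), 0.25 (APAF1) and 0.40 (XIAP) above their group means, and in replicate 3 of that group at -0.18, -0.24 and -0.33. In cNSF-HA + tBHP replicate 3 they stood at -0.15, -0.34 and -0.16. The trend with GC content and length, fitted to each library over all genes, gave values of the same sign in these libraries, from 0.15 for CASP2 to 0.28 for XIAP in fNSF-HA + tBHP replicate 2, and from -0.24 for XIAP to -0.14 for CASP2 in replicate 3. Its part in the differences between the HA groups was measured only by removing it, as given above.

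**Figure D4:**
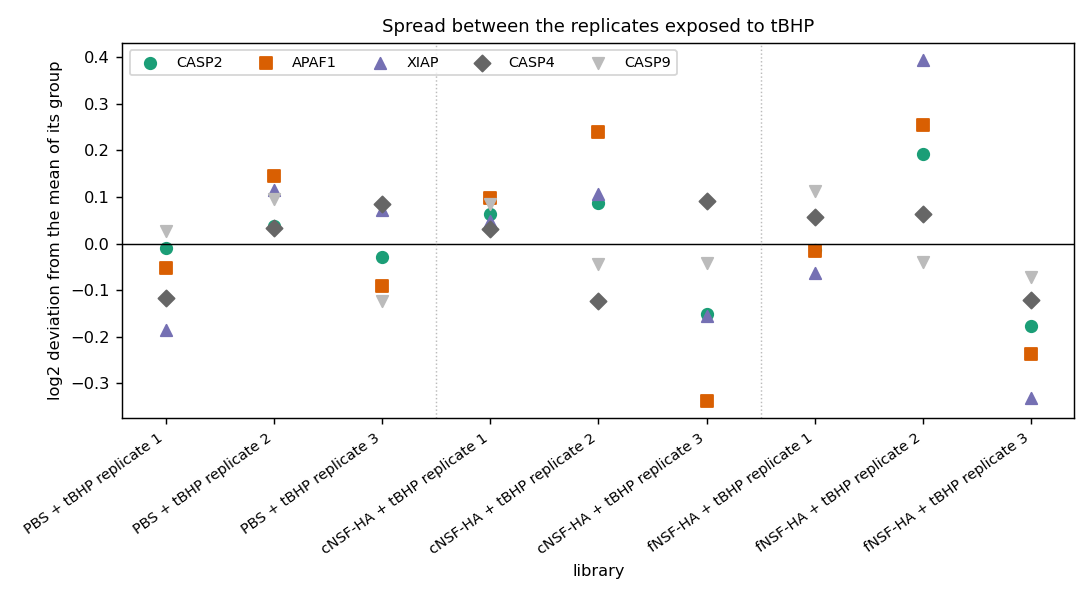
Log2 deviation of each library from the mean of its group (vertical axis) for CASP2, APAF1, XIAP, CASP4 and CASP9 in the 9 libraries exposed to tBHP. The symbols of CASP2, APAF1 and XIAP sit together above 0 in fNSF-HA + tBHP replicate 2 and together below 0 in replicate 3 of that group and in cNSF-HA + tBHP replicate 3.

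The other genes of the pathway, taken from lists written by hand, are given for the same tBHP comparison. CASP1, an inflammatory caspase gene with a mean of 30.4 normalized counts, differed by -0.54 in PBS cells (limma adjusted p = 0.0806) and was called lower with cNSF-HA (-0.998) and fNSF-HA (-0.977). CASP5, CASP12 and CASP14 had at most 2 reads in any library.

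Of 7 inhibitors of apoptosis other than XIAP, 4 were tested, and 3 fell in PBS cells after tBHP with none rising, where 26.9% of all genes were called lower and 24.2% higher. BIRC3, which encodes an inhibitor that acts in TNF receptor signalling, fell from 302 ± 21.1 to 60.3 ± 11 normalized counts, a log2 difference of -2.32 (limma adjusted p = 4.32e-09), beside -2.23 and -2.22 with cNSF-HA and fNSF-HA. BIRC2, its close relative, fell from 5573 ± 72.9 to 3027 ± 401 normalized counts (-0.89, limma adjusted p = 7.71e-07). BIRC5, which encodes survivin, a protein of mitosis, fell by 0.39. BIRC6 differed by -0.26 and was not called in PBS cells (limma adjusted p = 0.215) but was called lower in cNSF-HA cells (-0.60). The median of these 4 genes was -0.64 in PBS cells, beside 0.0065 for XIAP and 0.0043 for all genes.

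Of the antagonists of these inhibitors, 2 of 4 were tested and 0 were called by limma in any pre-incubation, where 51.1%, 50.8% and 41.9% of all genes were. DIABLO differed by -0.32 (limma adjusted p = 0.216) and HTRA2 by -0.0052 in PBS cells, and 0 of the 2 had an unadjusted p under 0.05 in any pre-incubation. Over all 13686 genes, 7775, 7756 and 6734 had one with PBS, cNSF-HA and fNSF-HA. Of 3 mitochondrial proteins released in apoptosis, 1 fell and none rose in PBS cells, where 26.9% of all genes were called lower and 24.2% higher. CYCS, the cytochrome c that binds APAF1, went from 2728 ± 255 to 1783 ± 280.1 normalized counts (-0.62, limma adjusted p = 0.000595) beside -0.38 and -0.42 with cNSF-HA and fNSF-HA. AIFM1 and ENDOG differed by 0.02 and -0.05 in PBS cells and were not called.

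Of 10 genes of caspase activation platforms and their regulators, 9 were tested, and 1 rose and 0 fell in PBS cells, where 24.2% and 26.9% of all genes did. PIDD1, which encodes the scaffold that activates the CASP2 protein and is a p53 target, rose from 311 ± 4.84 to 761 ± 45.5 normalized counts, a log2 difference of 1.29 (limma adjusted p = 5.86e-05), while CASP2 itself differed by -0.11. PIDD1 also rose with cNSF-HA (1.36) and fNSF-HA (0.82). CRADD, the adaptor between PIDD1 and the CASP2 protein, differed by 0.19 (limma adjusted p = 0.195) and TRADD, an adaptor of the TNF receptor, by 0.27 (limma adjusted p = 0.201). CFLAR, which encodes an inhibitor of the CASP8 protein, differed by -0.17 in PBS cells (limma adjusted p = 0.0642) and was called lower in cNSF-HA (-0.26) and fNSF-HA cells (-0.25). With cNSF-HA 3 of the 9 rose and 1 fell (24% and 26.8% of all genes), and with fNSF-HA 2 rose and 1 fell (19.2% and 22.7%).

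Of 17 genes of caspase substrates, 16 were tested, and 3 rose and 6 fell in PBS cells, with a median of -0.09, where 24.2% of all genes were called higher and 26.9% lower. XKR8, which encodes a lipid scramblase switched on by cleavage, rose by 0.81 (limma adjusted p = 2.82e-05) and SPTAN1, which encodes a spectrin, by 0.58 (limma adjusted p = 7.75e-07). LMNB1, which encodes a lamin, fell by 0.69 (limma adjusted p = 4.51e-08) and ROCK1, which encodes a kinase of membrane blebbing, by 0.55 (limma adjusted p = 0.000623). With cNSF-HA 4 rose and 7 fell (24% and 26.8% of all genes), and with fNSF-HA 3 rose and 6 fell (19.2% and 22.7%).

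**Figure D5:**
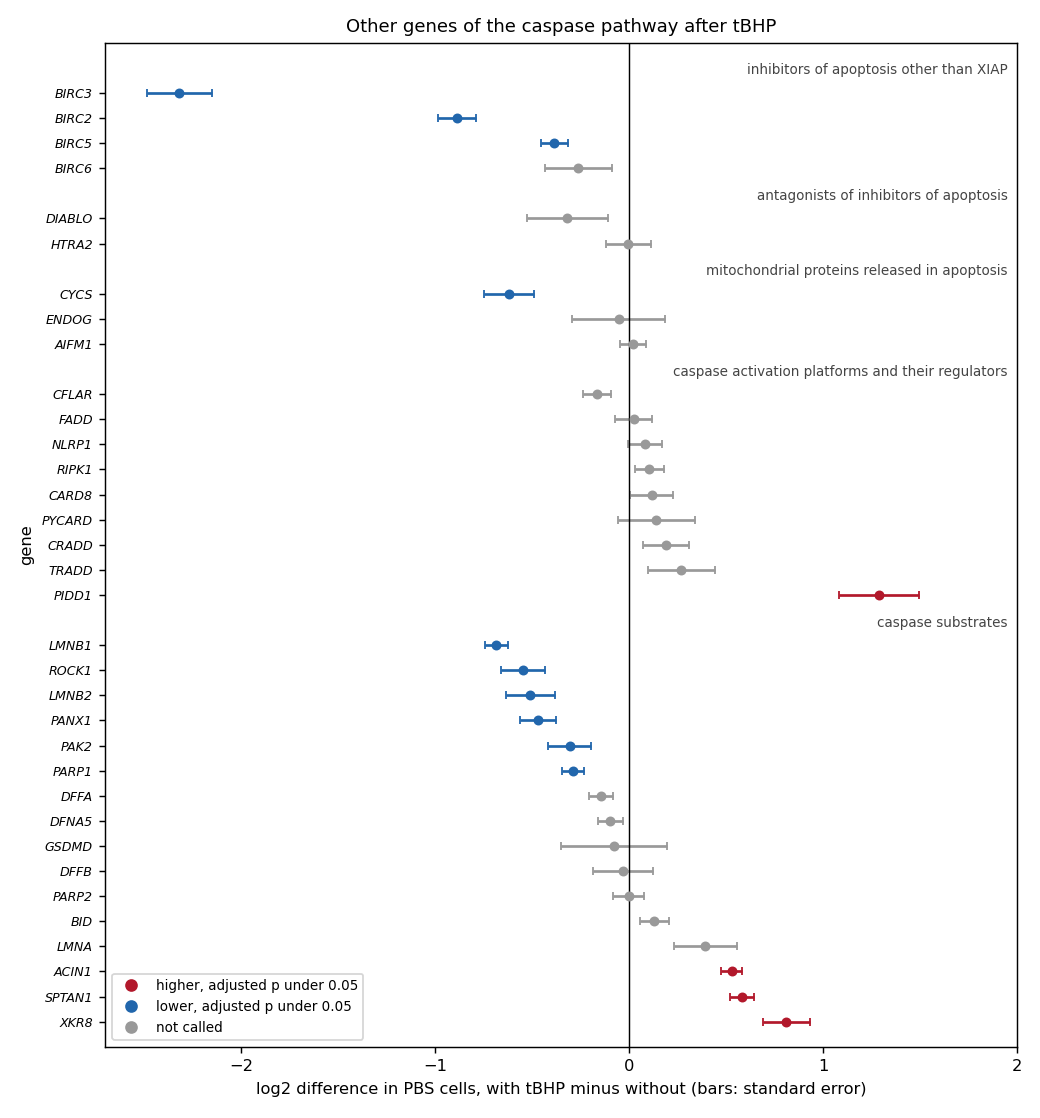
Log2 difference in PBS cells between libraries with and without tBHP (horizontal axis, bars give the standard error of limma) for the tested genes of 5 lists of the caspase pathway. Red marks genes called higher and blue genes called lower at an adjusted p under 0.05: BIRC3 at -2.32 and PIDD1 at 1.29 lie farthest from 0.

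The genes whose pattern over the 18 libraries was most like that of each of the 7 genes were sought by Pearson's r on log2 values among 10313 genes with a mean of at least 100 normalized counts. These correlations describe the pattern and carry no test, since the 18 libraries share groups and depth. CASP4 was most like PDCD4 (r = 0.974) and EIF1B (0.973), CASP2 most like TAOK1 (0.972) and MED13 (0.969), and XIAP most like RASSF8 (0.97) and SKIL (0.96). APAF1 was most like RIC1 (0.954) and RANBP2 (0.947), and CASP9 most like TRIM68 (0.932) and PREP (0.923). For CASP6 the closest were LTA4H (0.814) and ACP1 (0.802), and for CASP8 ATXN3 (0.801) and SRRM1 (0.782), lower values than for the other genes. Among the 7 genes themselves, r over the 18 libraries was 0.863 for CASP4 and CASP9, 0.833 for CASP2 and APAF1, 0.824 for APAF1 and XIAP, 0.725 for CASP2 and XIAP, and -0.542 for CASP2 and CASP4. For CASP4 and CASP9 the deviations from group means gave only 0.111 after tBHP and 0.283 without it, so the pair was alike between groups more than within them. For CASP2 and CASP4 they gave 0.113 and -0.887. For CASP2 and APAF1, APAF1 and XIAP, and CASP2 and XIAP the values without tBHP were -0.293, 0.255 and 0.242, lower than the values after tBHP given above.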

How the data were processed

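RNA of IMR90 cells was sequenced by the authors from TruSeq RNA V2 libraries, which do not mark strand, as single-end reads of 100 nt. The submitters' processing notes name GRCh38.p7, Trimmomatic 0.32, STAR 2.5.2b, featureCounts, Subread 1.5.0-p3 and DESeq2. The deposited signal per gene is the read count divided by the DESeq2 size factor, and whole reads were recovered for 100% of the values (tolerance 0.01 of a read). Columns with the authors' p-values, q-values and a ranking (3 columns) were not used. Log2(value + 1) was tested with limma 3.58.1 in R 4.3.3 (mean-variance trend, 1 coefficient per group, all 18 libraries, two-sided, Benjamini-Hochberg over the 13686 genes with a mean of at least 10, threshold 0.05), so folds of low genes are understated. Recovered reads were tested with edgeR 4.0.16 and DESeq2 1.42.0. The chi-square per degree of freedom between replicates was 1.48 to 2.69 without tBHP and 2.86 to 71.2 after it. Other settings were pseudocounts of 0.1 and 5, no filter, a minimum mean of 50, TMM and quantile scaling, a replicate block, only the compared groups, each library left out, and removal of the trend with GC and length (splines with 5 degrees of freedom, 12528 genes, 91.5%). The scripts were tested on simulated data with the same spread in every group, so the wider spread after tBHP was not tried. Of the genes called there, 5.85% were false with limma, 6.32% with edgeR and 9.71% with DESeq2. The genes and lists were chosen with earlier results of these data known. Named are the 8 genes, at most 4 tested genes per list with the largest tBHP difference in PBS cells, and the 2 genes most alike in pattern. Symbols were matched to GENCODE release 29 (GRCh38) and RefSeq promoters (GRCh38.p14), and protein sequences were not used here. Some genes of the list of other caspases are not reported here.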

Additional observations from a re-analysis of the deposited data

How the results depend on the processing

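The log2 differences of CASP4 after tBHP kept their direction and stayed called under every setting. In PBS cells 2 of the 7 genes were called, and 3 with the GC and length trend removed, a setting that called 7239 of 12528 genes. In cNSF-HA cells after tBHP, 1 of the 7 was called instead of 2 with no filter (6625 of 31441 genes), and 3 with the GC and length trend removed (7094 of 12528). Leaving out single libraries there moved only the call of CASP2. In fNSF-HA cells 1 was called in the fit of only the compared groups (4267 of 13686), and 4 with the GC and length trend removed (7027 of 12528). Leaving out single libraries there moved the calls of CASP9 and CASP2. Without tBHP, 1 was called between the HA preparations in the fit of only the compared groups (980 of 13686). After tBHP, leaving out single libraries moved the calls of XIAP, APAF1 and CASP2 between the HA preparations and that of CASP4 between fNSF-HA and PBS cells. The number called over all genes moved too, as given below. The cause of these moves was not tested.

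Signs reversed for some values that were not called in the main analysis. With the GC and length trend removed these included APAF1 0.12 and CASP2 0.040 in PBS cells, APAF1 0.18 and XIAP 0.36 in cNSF-HA cells, CASP4 0.16 and CASP8 0.077 between the HA preparations after tBHP, CASP4 -0.029, XIAP -0.039, CASP2 -0.039 and CASP6 -0.076 between fNSF-HA and PBS cells after tBHP, the response differences of XIAP (0.0046), CASP4 (0.0998), CASP2 (0.012) and CASP8 (0.031) for cNSF-HA minus fNSF-HA, of CASP4 (-0.047), XIAP (-0.051) and CASP6 (-0.041) for fNSF-HA minus PBS and of APAF1 (0.063) for cNSF-HA minus PBS, and, for PBS cells after tBHP, AIFM1 -0.074 and TRADD -0.10. Other scalings or tools reversed CASP6 in cNSF-HA cells (0.056 with TMM, 0.043 with quantiles, 0.061 with edgeR, 0.0045 with DESeq2), HTRA2 (0.059, 0.037 and 0.061 with TMM, quantiles and edgeR) and ENDOG (0.0099, 0.012 and 0.0093). TMM scaling raised log2 differences after tBHP by a median of 0.06 in each pre-incubation. With 1 library left out, the signs that reversed included those within these ranges: in PBS cells CASP6 -0.029 to 0.091, CASP8 -0.0082 to 0.17, XIAP -0.051 to 0.10, HTRA2 -0.068 to 0.045, ENDOG -0.13 to 0.042 and AIFM1 -0.0053 to 0.041; in cNSF-HA cells CASP6 -0.090 to 0.091, CASP8 -0.040 to 0.12 and APAF1 -0.27 to 0.016; in fNSF-HA cells APAF1 -0.078 to 0.17 and XIAP -0.11 to 0.26; between the HA groups after tBHP CASP6 -0.17 to 0.013 and CASP8 -0.14 to 0.018; between fNSF-HA and PBS cells after tBHP XIAP -0.067 to 0.30, CASP2 -0.051 to 0.13, CASP8 -0.10 to 0.076 and CASP6 -0.037 to 0.095; and between cNSF-HA and PBS cells after tBHP APAF1 -0.24 to 0.048, CASP8 -0.17 to 0.015 and CASP6 -0.14 to 0.042.

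Over all genes, the count called between the HA preparations after tBHP was 0 in the main analysis, 793 with DESeq2 and 5586 without fNSF-HA + tBHP replicate 3. Between fNSF-HA and PBS cells after tBHP it was 19, 451 with DESeq2 and 0 to 4024 with 1 library left out, of which 4024 without fNSF-HA + tBHP replicate 3.

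The replicate numbers did not meet the conditions set for pairing: the correlation of deviations was over 0.1 for all replicates in 0 of 15 pairs of groups and for 7 of 45 same-numbered pairs (-0.12 to 0.33), and the best match had the same number in 44 of 90 checks, where unrelated numbers would give about 1 in 3. With a block for the replicate number, the same members were called after tBHP in each pre-incubation as without it. In the other comparisons the smallest limma adjusted p of a member was 0.0665, for APAF1 between cNSF-HA and fNSF-HA after tBHP.

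Counting limits CASP9 (57 to 108 reads per library) and leaves CASP10 untested.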
